A study of Mus musculus with 51 samples.

Results

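The comparison described here set ventral prostates of transgenic FVB-AKT1 mice given RAD001 for 48 h against ventral prostates of wild type FVB mice given placebo for 48 h. It asks which genes still differed from wild type while the drug was present. Arrays were chosen by their titles alone, 4 of RAD001-treated transgenic mice and 4 of wild type mice, and these 8 are among 51 arrays of the study and among 42 of the deposited table used. The 4 treated samples carry the replicate numbers 1, 2, 4 and 5 and the wild type samples the numbers 1 to 4. A further group of 48 h, 5 arrays of transgenic mice given placebo, is given beside them, and the same 3 kinds of sample were read at 12 h and 15 d. All mice were 8 to 10 weeks old, of the FVB strain, and on a standard diet. No wild type mice given RAD001 are among the samples, so in this comparison genotype and drug differ together and cannot be told apart. The sources used here do not give the promoter that drives the transgene, the dose, or whether a sample pools several animals.

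RAD001 (everolimus) is a derivative of rapamycin that inhibits mTOR complex 1, a kinase complex that lies downstream of AKT. AKT1 is a kinase that relays signals from growth factor receptors through PI3K, promotes glucose uptake and glycolysis, and restrains the FOXO transcription factors. mTOR complex 1 promotes translation, the synthesis of the hypoxia-inducible factor HIF-1 alpha, and sterol and serine synthesis through the factors SREBP and ATF4, and it restrains autophagy. The ventral lobe of the mouse prostate consists of secretory luminal epithelium with a basal layer, wrapped in smooth muscle and fibroblasts.

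Values are log2 of the deposited probe set intensities with a floor of 16 (4 on the log2 scale), and a difference is RAD001-treated transgenic minus wild type, with its standard error after the ± sign. A gene is called where the adjusted p of limma's moderated test was under 0.05, with Benjamini-Hochberg adjustment over all 9627 features. The median intensity of the 8 arrays ranged from 96.9 to 105, and precision is limited by how few arrays each group has. Array 4 of the RAD001 group correlated with its own group at a median of 0.873, against 0.939 for each of its companions, and array 2 of wild type at 0.920, against 0.949 to 0.958 for the others. The 8 arrays hold 62 to 268 values at exactly 0 each, some on probe sets that are bright on other arrays. Of the 9627 features, 292 are listed at 0 on at least 1 of the 8 arrays, and where such a gene is named its array values are given with no fold. RAD001 array 5 shares 10 to 33 identical nonzero values with each of the 41 other arrays, whereas no other pair shares more than 2, and the cause was not tested.

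Akt1, the gene of the transgene, was read by 2 probe sets. The brighter one stood at 10.02, 9.70, 9.49 and 9.69 in RAD001-treated transgenic mice, at 9.32 to 9.77 in transgenic mice given placebo, and at 9.36, 9.46, 9.77 and 9.33 in wild type mice. These groups overlap, and the difference of 0.24 ± 0.14 did not pass the test (adjusted p = 0.263). The dimmer probe set stood at 6.89, 7.36, 7.43 and 7.15 in RAD001-treated mice, at 6.66 to 7.90 under placebo, and at 5.74, 6.21, 6.41 and 6.40 in wild type mice. Here no transgenic array reached down to the wild type range, and the difference was 1.02, with an adjusted p of 0.097 when all probe sets were tested apart. Whether either probe set reads the message of the transgene is not stated in the files. The tissue can be read on secretory genes: Pbsn (probasin, an androgen-dependent secretory protein of the rodent prostate) stood at 11.92 to 12.58 in RAD001-treated mice and at 11.81 to 12.21 in wild type mice. The 7 seminal vesicle genes on the array stood at 6.03 or below on all 8 arrays at their brightest probe set.

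Under RAD001 the transgenic prostate still differed from wild type at 1284 of 9627 features, 13.3% of those tested. Of these, 637 (6.62%) were higher and 647 (6.72%) lower, and 59 of the higher and 48 of the lower differed by at least 2-fold, 1.11% of all tested. The median difference of all features was 0.01. At 1079 of the 1284 called features (84%), every RAD001 array lay on one side of every wild type array, as it did at 2180 features (22.6%) of all tested. Transgenic mice given placebo differed from the same wild type arrays at 2564 features (26.6%), 12.2% higher and 14.4% lower, and RAD001-treated from placebo-treated transgenic mice at 341 (3.54%). The 3 comparisons share arrays, so these counts stand side by side without a test of their difference. The count was 815 without RAD001 array 2, 864 without wild type array 2, and 642 without both RAD001 array 4 and wild type array 2, of which 367 were higher and 275 lower. With the values at exactly 0 treated as missing it was 1722.

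Among the largest rises were genes of a surface antigen and of an acute-phase protein. Psca, the gene of prostate stem cell antigen, stood at 11.06, 11.50, 11.64 and 10.85 in RAD001-treated mice, against 5.88, 6.25, 5.58 and 5.50 in wild type mice. The groups lie far apart, with a difference of 5.46 ± 1.23 (adjusted p = 0.00294), or 43.9-fold. In transgenic mice given placebo Psca ranged from 9.11 to 12.14, and RAD001 minus placebo was 0.13 ± 1.17 (adjusted p = 0.991). Saa2, a serum amyloid A gene of the acute-phase response, stood at 10.09, 10.30, 9.86 and 9.44 in RAD001-treated mice and at 5.43, 5.86, 5.83 and 5.59 in wild type mice. Its difference was 4.25 ± 0.81 (adjusted p = 0.000657), and no array of one group reached the range of the other. Gde1, a membrane glycerophosphodiester phosphodiesterase, had 9.38, 9.34, 9.71 and 9.28 in RAD001-treated mice, against 7.49, 7.73, 7.53 and 7.36 in wild type mice, a difference of 1.90 ± 0.31 (adjusted p = 0.000119).

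Among the other large rises, Krt23, a keratin of epithelial cells, differed by 1.76 ± 0.29 (adjusted p = 0.000176), with 7.86 to 8.74 in RAD001-treated mice and 5.83 to 6.78 in wild type mice. Snhg11, a noncoding host gene of small nucleolar RNAs, differed by 2.00 ± 0.45, Col13a1, a transmembrane collagen, by 1.55 ± 0.22, and Smad7, an inhibitor of TGF-beta signalling, by 1.502 ± 0.27. All 4 were called, and their RAD001 and wild type arrays did not overlap. Of the 15 largest called rises, 8 have wild type arrays listed at 0. Ephb3 and Col1a1 are listed at 0 on 3 of 4 wild type arrays, Rpf2, Pomc, Cys1 and Mmp9 on 2, and Anxa13 and Get4 on 1. A value listed at 0 is printed as 4, the floor. Ephb3, an ephrin receptor, had 7.93, 8.47, 8.45 and 8.04 in RAD001-treated mice, against 8.12, 4, 4 and 4 in wild type mice. Col1a1, a chain of type I collagen, had 8.21, 7.84, 8.37 and 8.48 in RAD001-treated mice, against 8.40, 4, 4 and 4 in wild type mice. On the 1 wild type array not at 0, each of these genes lay within its RAD001 range. Rpf2 stood at 9.28, 9.49, 9.99 and 9.65 in RAD001-treated mice, against 4, 4, 9.77 and 9.36 in wild type mice. Pomc read 7.93, 8.04, 8.03 and 8.19 in RAD001-treated mice, against 4, 8.44, 7.78 and 4 in wild type mice. Cys1 was at 7.63, 7.71, 8.10 and 7.84 in RAD001-treated mice, against 4, 7.58, 7.78 and 4 in wild type mice. Apart from the values at 0, the wild type arrays of Rpf2 lie within its RAD001 range, and Pomc has 1 above and 1 below its own. Mmp9, a matrix metalloproteinase, had 7.62, 7.53, 7.73 and 7.73 in RAD001-treated mice, against 4, 7.73, 4 and 7.77 in wild type mice. Anxa13, an annexin, had 8.92, 9.11, 8.71 and 8.31 in RAD001-treated mice, against 8.06, 4, 8.03 and 8.15 in wild type mice. Get4 stood at 9.42, 9.14, 8.92 and 9.31 in RAD001-treated mice, against 8.72, 8.71, 9.04 and 4 in wild type mice. Of Anxa13, the wild type arrays not at 0 lie below all RAD001 arrays. These 8 genes read 7.53 to 9.99 on the RAD001 arrays and 7.58 to 9.77 on the wild type arrays where they are not listed at 0. With values at 0 treated as missing none of the 8 was called, and the differences of Col1a1, Pomc and Mmp9 turned to -0.17, -0.06 and -0.10.

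**Figure D1:**
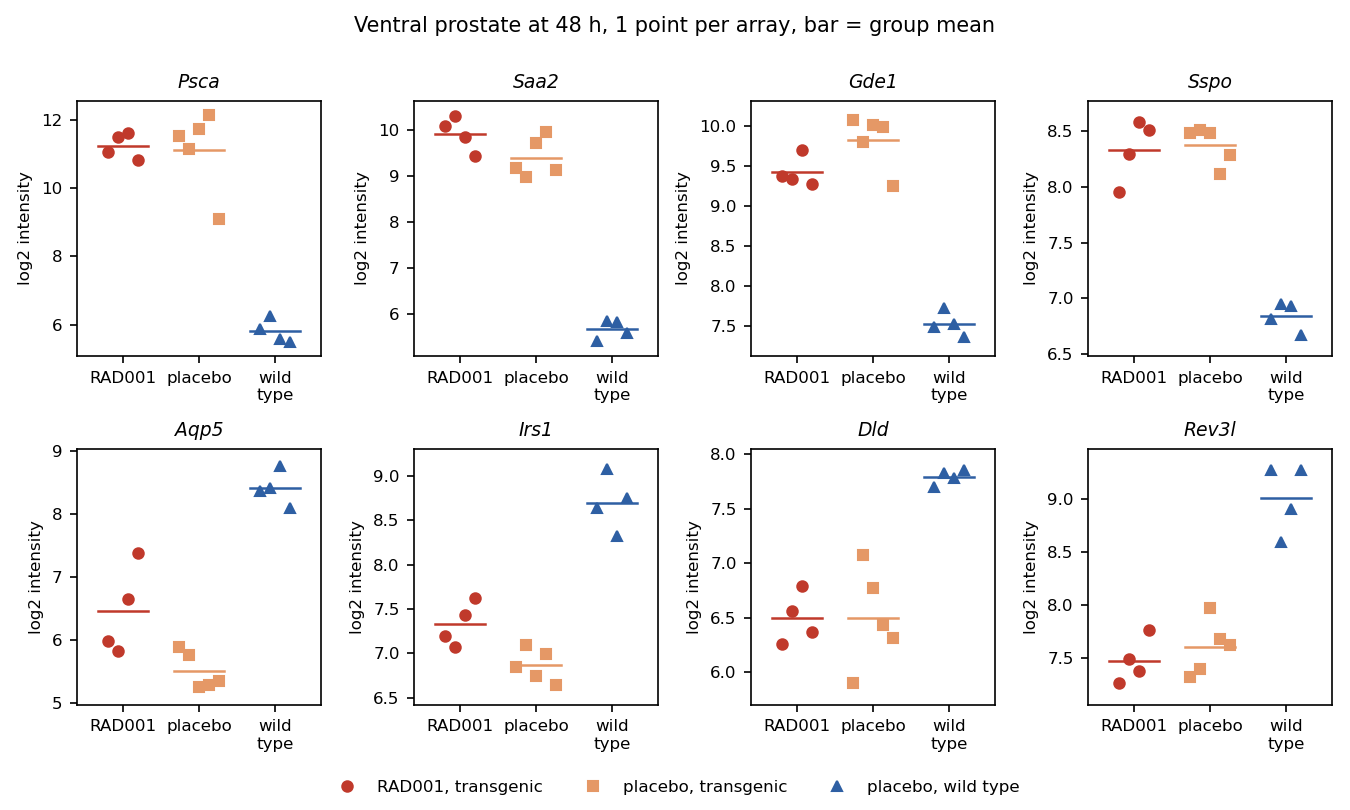
Log2 intensity (vertical axis) of 8 genes on each 48 h array of RAD001-treated transgenic mice (red circles), placebo-treated transgenic mice (orange squares) and wild type mice (blue triangles), with a bar at each group mean. In each of the 8 panels no RAD001 point lies within the range of the 4 wild type points.

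Among the largest falls with no value at 0 on the 8 arrays were Aqp5, Bdh1, Chdh and Irs1. Aqp5, a water channel of secretory epithelia, had 5.99, 5.82, 6.64 and 7.38 in RAD001-treated mice, against 8.36, 8.41, 8.75 and 8.09 in wild type mice. No RAD001 array reached the wild type range, and the difference was -1.95 ± 0.55 (adjusted p = 0.0163), although the call was lost without RAD001 array 2 (adjusted p = 0.0603). Bdh1, which interconverts the ketone bodies acetoacetate and beta-hydroxybutyrate, stood at 6.04, 5.43, 6.11 and 6.24 in RAD001-treated mice and at 7.21, 7.38, 8.04 and 7.99 in wild type mice, a difference of -1.70 ± 0.26 (adjusted p = 7.81e-05). Chdh, a choline dehydrogenase of mitochondria, differed by -1.37 ± 0.25. Irs1, the adaptor between the insulin and IGF-1 receptors and PI3K, had 7.20, 7.07, 7.44 and 7.62 in RAD001-treated mice, against 8.64, 9.09, 8.33 and 8.75 in wild type mice. The Irs1 arrays do not overlap, with a difference of -1.37 ± 0.23 (adjusted p = 0.000184), and in transgenic mice given placebo Irs1 was at 6.64 to 7.09.

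Rev3l, the catalytic subunit of DNA polymerase zeta, differed by -1.54 ± 0.20 (adjusted p = 1.35e-05), with 7.26 to 7.77 in RAD001-treated mice and 8.60 to 9.28 in wild type mice. Its second, dimmer probe set stood at -0.26 and was not called when all probe sets were tested apart. Aldh1a7, an aldehyde dehydrogenase, differed by -1.33 ± 0.28, Wdr75, a factor of ribosome biogenesis, by -1.26 ± 0.27, and Sh3bgr by -1.29 ± 0.35. The second probe set of Wdr75 stood at -0.35. Ramp1, a partner of the calcitonin receptor-like receptor, differed by -1.26 ± 0.36, and its call was lost without RAD001 array 4 (adjusted p = 0.0582). The call of Qser1, at -1.24 ± 0.42 (adjusted p = 0.043), was lost in all 8 fits that left out 1 array. None of the 8 arrays is listed at 0 for Qser1. With values at 0 on any array treated as missing, limma gave the same difference of -1.24 with an adjusted p of 6.24e-05. The cause of this change in p was not tested. Of the 15 largest called falls, 4 have RAD001 arrays listed at 0, namely Acadvl on 2 arrays and Bzw2, Gjb5 and Krt7 on 1. Acadvl, an acyl-CoA dehydrogenase of mitochondria, had 9.27, 4, 4 and 9.69 in RAD001-treated mice, against 9.59, 9.35, 9.40 and 9.61 in wild type mice. Of its 2 other RAD001 arrays, 1 lies below and 1 above the wild type range. Bzw2 stood at 4, 8.64, 8.79 and 8.74 in RAD001-treated mice, against 9.27, 9.57, 9.65 and 9.35 in wild type mice. Gjb5, a connexin, had 6.08, 6.73, 4 and 6.49 in RAD001-treated mice, against 7.54, 6.94, 7.23 and 7.40 in wild type mice. Krt7, a keratin of simple epithelia, was at 7.31, 7.48, 4 and 7.75 in RAD001-treated mice, against 8.01, 8.33, 8.09 and 7.63 in wild type mice. None of the 4 was called with values at 0 treated as missing.

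Among the pathway lists with at least 10 measured genes, the largest shares called lower were those of the citric acid cycle and of serine synthesis and ATF4 targets, and the largest shares called higher were those of glycolysis, immediate early factors and hypoxia targets. Fewer cells of a type and less RNA per cell cannot be told apart in these whole-lobe samples.

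**Figure D2:**
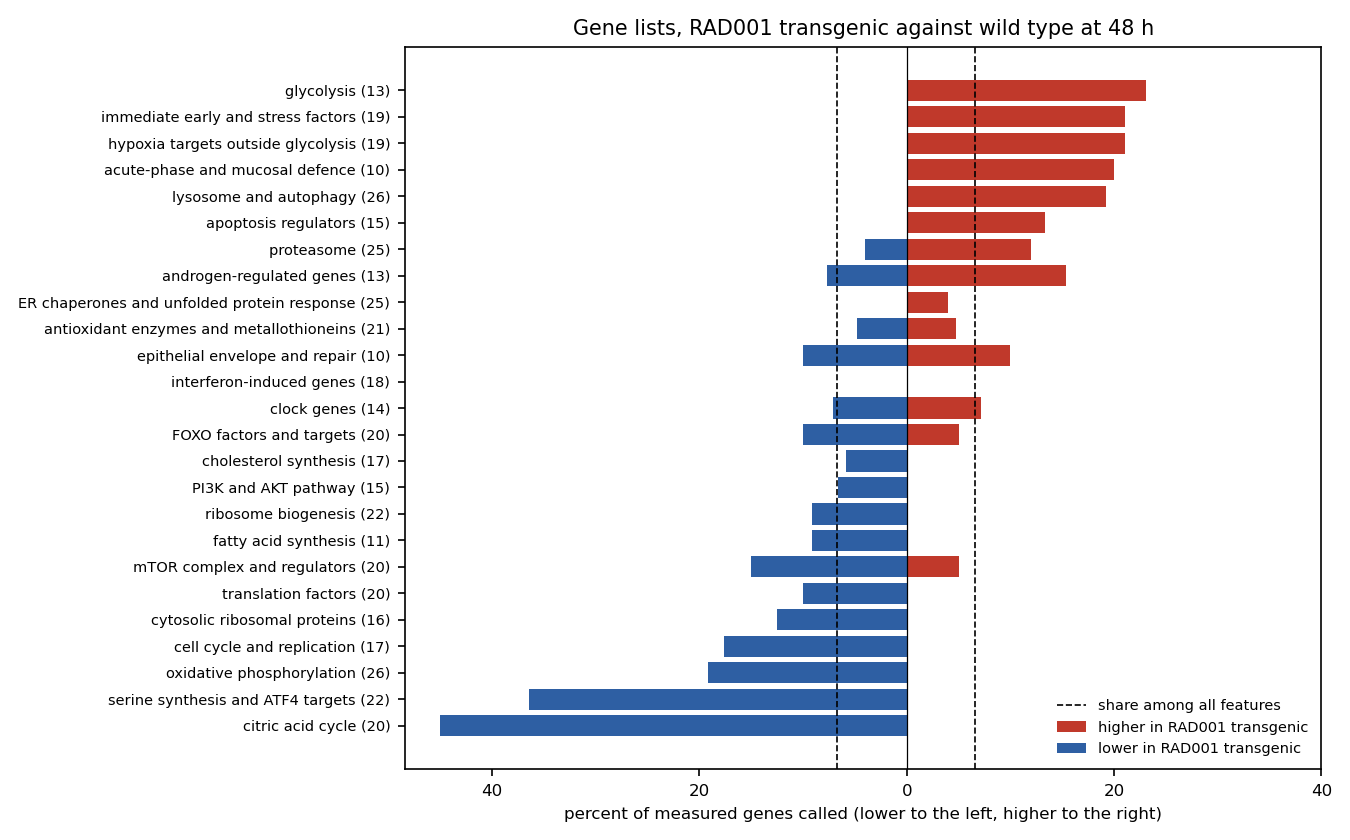
Percent of the measured genes of each pathway list that were called higher (red, to the right) or lower (blue, to the left) in RAD001-treated transgenic mice than in wild type mice at 48 h, with the number measured in parentheses. Dashed lines mark the shares among all 9627 features, 6.62% higher and 6.72% lower, and the longest bar is the citric acid cycle, at 45% lower.

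Of 20 measured genes of the citric acid cycle, 9 fell (45%, against 6.72% of all features) and none rose, with a median difference of -0.32 against 0.01 over all features. Dld, the lipoamide dehydrogenase subunit that the pyruvate and oxoglutarate dehydrogenase complexes share, stood at 6.26, 6.57, 6.79 and 6.37 in RAD001-treated mice, against 7.69, 7.83, 7.78 and 7.85 in wild type mice. Every RAD001 array lay below every wild type array, and the difference was -1.29 ± 0.19 (adjusted p = 5.3e-05). Suclg2, a subunit of succinate-CoA ligase, had 6.92, 7.30, 6.58 and 6.98 in RAD001-treated mice and 7.57, 7.67, 7.92 and 7.80 in wild type mice, without overlap, a difference of -0.79 ± 0.16 (adjusted p = 0.00109). Sdhd, a membrane anchor of succinate dehydrogenase, differed by -0.71 ± 0.16 (adjusted p = 0.00292), and Idh3g, a subunit of NAD-dependent isocitrate dehydrogenase, by -0.38 ± 0.08 (adjusted p = 0.00156). The other 5 called members, Fh1 (fumarase), Sdhb, Sucla2, Suclg1 and Idh3a, differed by -0.52 to -0.32. Sdha, the catalytic subunit of succinate dehydrogenase, and Cs, citrate synthase, did not pass the test, at 0.05 and -0.17.

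In transgenic mice given placebo the citric acid cycle list had 5 genes lower and 1 higher than the same wild type arrays, with a median of -0.14. Of all features 14.4% were lower and 12.2% higher in that comparison. At 12 h, with other arrays, 4 members were lower under RAD001 than in wild type (8.31% of all features were) and the median was -0.03, and at 15 d no member was called and the median was -0.04. Dld differed by -0.29 at 12 h and by -0.08 at 15 d, neither called. Without RAD001 array 4 and wild type array 2, 6 of the 20 were called lower at 48 h, and the median was -0.28. Calls among all features were fewer in that fit too.

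Of 26 genes of oxidative phosphorylation, 5 fell (19.2%, against 6.72% of all features) and none rose, with a median of -0.11. Ndufs1, the largest subunit of complex I, had 7.63, 7.30, 7.20 and 7.66 in RAD001-treated mice, against 8.21, 8.37, 8.49 and 8.37 in wild type mice. These arrays do not overlap, and the difference was -0.92 ± 0.14 (adjusted p = 5.3e-05). Cyc1, the cytochrome c1 subunit of complex III, differed by -0.39 ± 0.09 (adjusted p = 0.00425). Atp5c1, the gamma subunit of ATP synthase, differed by -0.44 ± 0.08 (adjusted p = 0.000683) on the probe set used, whereas its second probe set stood at 0.05. Uqcrfs1, the iron-sulfur subunit of complex III, differed by -0.39 ± 0.11, and its call was lost without RAD001 array 1 (adjusted p = 0.105).

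Serine synthesis and the other targets of ATF4, a transcription factor of the amino acid response, formed the other list with many falls. Of its 22 measured genes, 8 fell (36.4%, against 6.72% of all features) and none rose, with a median of -0.35. Psat1, phosphoserine aminotransferase of the serine pathway, stood at 5.80, 5.78, 5.09 and 5.81 in RAD001-treated mice, against 6.96, 6.88, 6.41 and 6.67 in wild type mice. Its arrays do not overlap, with a difference of -1.11 ± 0.22 (adjusted p = 0.00107). Transgenic mice given placebo had 6.32 to 7.34, so that RAD001 minus placebo was -1.21 ± 0.21 (adjusted p = 0.000842) and placebo minus wild type 0.10 ± 0.21 (adjusted p = 0.794). Shmt2, the mitochondrial serine hydroxymethyltransferase, differed from wild type by -0.72 ± 0.17 (adjusted p = 0.0039), with 6.28 to 7.04 in RAD001-treated mice and 7.17 to 7.52 in wild type mice. In transgenic mice given placebo Shmt2 was at 6.38 to 7.01.

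Nars, an asparaginyl-tRNA synthetase, differed by -0.49 ± 0.10 (adjusted p = 0.00104) and Slc3a2, the heavy chain of amino acid transporters, by -0.39 ± 0.11 (adjusted p = 0.0161). Phgdh, the first enzyme of serine synthesis, differed by -0.43 ± 0.12 (adjusted p = 0.0173). The calls of Slc3a2 and Phgdh were lost without RAD001 array 4 (adjusted p = 0.0746 and 0.0872). The message of Atf4 itself was at 0.09 ± 0.66 and was not called (adjusted p = 0.96). In transgenic mice given placebo 7 members were lower than in the same wild type arrays (14.4% of all features were) and none higher, with a median of -0.15. At 12 h the list had 9 lower members (8.31% of all features were lower) and a median of -0.29, and at 15 d none and -0.09. Without RAD001 array 4 and wild type array 2, 2 of the 22 were called lower at 48 h, and the median was -0.31. Calls among all features were fewer in that fit too.

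**Figure D3:**
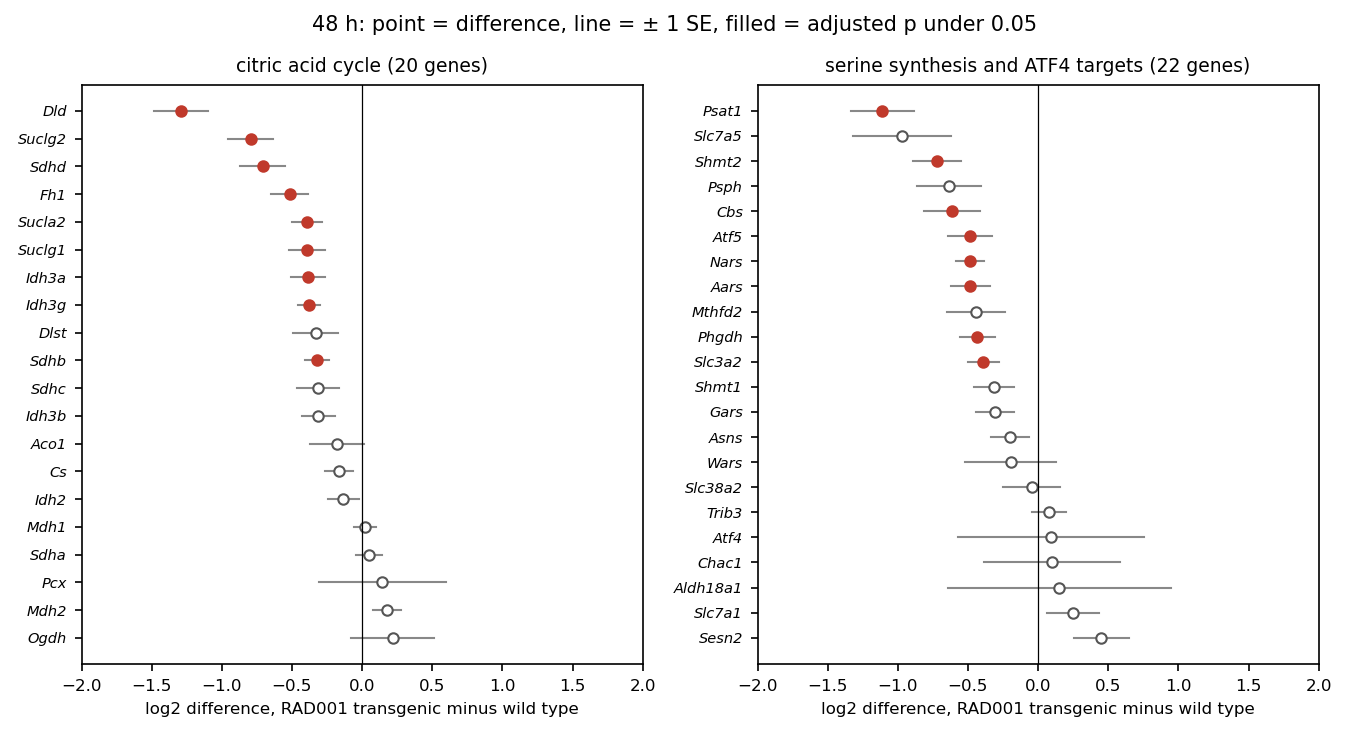
Log2 difference, RAD001-treated transgenic minus wild type at 48 h (horizontal axis), for each measured gene of the citric acid cycle (left) and of serine synthesis and ATF4 targets (right), with lines of ± 1 SE. Filled points passed the test: 9 of 20 on the left and 8 of 22 on the right, all below 0.

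Of 13 measured genes of glycolysis, 3 were called higher than wild type under RAD001 (23.1%, against 6.62% of all features) and none lower, with a median of 0.33. In transgenic mice given placebo 7 were higher than in the same wild type arrays (12.2% of all features were), with a median of 1.08. Aldoa, the aldolase of glycolysis, had 11.16, 11.00, 11.30 and 11.02 in RAD001-treated mice, 11.60 to 11.98 in transgenic mice given placebo, and 10.71, 10.78, 10.56 and 10.55 in wild type mice. None of the 3 groups overlap, and RAD001 minus wild type was 0.47 ± 0.15 (adjusted p = 0.0347) on this probe set, whereas the 4 probe sets of Aldoa ranged from -0.48 to 0.51. Pfkl, a phosphofructokinase subunit, differed by 0.68 ± 0.20 (adjusted p = 0.0192) and Pfkm, another such subunit, by 0.33 ± 0.07 (adjusted p = 0.00253). The call of Aldoa was lost without RAD001 array 4 (adjusted p = 0.104) and that of Pfkl without wild type array 3 (adjusted p = 0.0699).

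Several glycolytic genes did not pass the test against wild type. Tpi1, triosephosphate isomerase, was at 9.98 to 10.36 in RAD001-treated mice, at 10.99 to 11.32 under placebo and at 9.42 to 10.12 in wild type mice, and RAD001 minus wild type was 0.43 ± 0.16 (adjusted p = 0.0756). Pgk1, phosphoglycerate kinase, differed by 0.10 ± 0.16 (adjusted p = 0.77), while placebo minus wild type was 1.08 ± 0.15. Hk2, a hexokinase, was at -0.31 ± 0.18 (adjusted p = 0.266), and Slc2a1, the glucose transporter GLUT1, at -0.16 ± 0.49 (adjusted p = 0.901), with its 3 probe sets at -0.16 to 0.32. Ldha, lactate dehydrogenase A, stood at 11.34 to 11.62 in RAD001-treated mice and at 10.74 to 11.22 in wild type mice without overlap. It is listed at 0 on 1 transgenic placebo array, and the adjusted p was 0.889 as deposited and 0.0396 with values at 0 treated as missing.

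The hypoxia list outside glycolysis holds genes that HIF-1, a transcription factor stabilised at low oxygen, is known to induce. Of its 19 measured genes, 4 were higher than wild type under RAD001 (21.1%, against 6.62% of all features) and none lower, and the median was 0.04. The promoters of these 4 are shown because ACGTG is a core that HIF-1 binds, to show where this core lies in the members that were called. Other forms of the HIF-1 site were not searched. Each is from RefSeq, build GRCm38.p6, 250 bases before to 50 after the annotated start, 5′ to 3′ on the gene's strand, and capitals mark ACGTG on either strand (CACGT in the printed strand).
Bnip3, chr7:138909457-138909756, minus strand: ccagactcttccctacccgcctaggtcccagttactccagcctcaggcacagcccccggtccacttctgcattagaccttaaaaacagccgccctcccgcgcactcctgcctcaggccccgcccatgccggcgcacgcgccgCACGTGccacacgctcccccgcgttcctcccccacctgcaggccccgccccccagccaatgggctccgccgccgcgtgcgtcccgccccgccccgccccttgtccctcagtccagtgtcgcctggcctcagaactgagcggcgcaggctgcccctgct
P4ha2, chr11:54100674-54100973, plus strand: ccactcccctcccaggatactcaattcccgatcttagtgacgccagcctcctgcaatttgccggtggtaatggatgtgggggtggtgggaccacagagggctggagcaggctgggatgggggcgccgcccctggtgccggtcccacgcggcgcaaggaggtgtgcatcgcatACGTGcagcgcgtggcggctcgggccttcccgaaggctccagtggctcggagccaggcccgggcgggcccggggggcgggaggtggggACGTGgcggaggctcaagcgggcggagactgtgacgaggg
Ero1a, chr14:45318523-45318822, minus strand: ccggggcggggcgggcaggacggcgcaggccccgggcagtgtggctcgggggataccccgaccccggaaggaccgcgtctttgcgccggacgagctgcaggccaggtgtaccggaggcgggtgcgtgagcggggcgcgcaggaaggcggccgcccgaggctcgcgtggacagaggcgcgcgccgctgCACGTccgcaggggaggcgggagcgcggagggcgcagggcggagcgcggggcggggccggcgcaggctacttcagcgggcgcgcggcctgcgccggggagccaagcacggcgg
Pdk1, chr2:71872974-71873273, plus strand: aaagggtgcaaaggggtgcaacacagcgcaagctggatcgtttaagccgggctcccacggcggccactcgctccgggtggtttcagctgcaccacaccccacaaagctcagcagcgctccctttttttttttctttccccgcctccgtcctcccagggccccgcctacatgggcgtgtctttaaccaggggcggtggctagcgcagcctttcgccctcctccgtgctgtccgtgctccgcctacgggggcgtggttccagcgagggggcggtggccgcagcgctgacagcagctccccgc
In Bnip3 the 2 matches overlap and spell CACGTG, an E-box, and P4ha2 has 2 separate matches and Ero1a 1. Neither this window nor the one at the other annotated start of Pdk1 holds these letters. Among all 32851 windows of this length 19.6% hold the core, and 12 of the 15 list members with a window do. The first count is by window and the second by gene, in any of its windows, so the 2 are not like for like. The list was assembled from known HIF-1 targets, and a match is only a description of the letters.

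Bnip3, a mitochondrial protein of mitophagy, stood at 9.43, 9.45, 9.46 and 9.25 in RAD001-treated mice, at 10.69 to 11.05 in transgenic mice given placebo, and at 8.90, 8.97, 8.51 and 8.61 in wild type mice. None of the 3 groups overlap, and RAD001 minus wild type was 0.65 ± 0.19 (adjusted p = 0.0237), beside 2.05 ± 0.18 for placebo minus wild type. Pdk1, the kinase that inhibits pyruvate dehydrogenase, had 6.68, 6.42, 6.54 and 6.24 in RAD001-treated mice, 7.06 to 7.56 under placebo, and 5.81, 5.55, 5.22 and 5.94 in wild type mice. It differed from wild type by 0.84 ± 0.24 (adjusted p = 0.0185), whereas its second, dimmer probe set stood at -0.35. P4ha2, a collagen prolyl hydroxylase, differed by 0.52 ± 0.15 (adjusted p = 0.0211), and Ero1a, an oxidase of the endoplasmic reticulum, by 0.95 ± 0.32 (adjusted p = 0.0438), both with overlapping arrays. Vegfa, the angiogenic growth factor, was at -0.02 ± 0.14 (adjusted p = 0.96). Each of the 4 calls was lost in at least 2 of the 8 fits without 1 array, with an adjusted p up to 0.14 for Ero1a without RAD001 array 4. Without RAD001 array 4 and wild type array 2 the list had 1 called member and a median of 0.05, in a fit with fewer calls among all features.

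**Figure D4:**
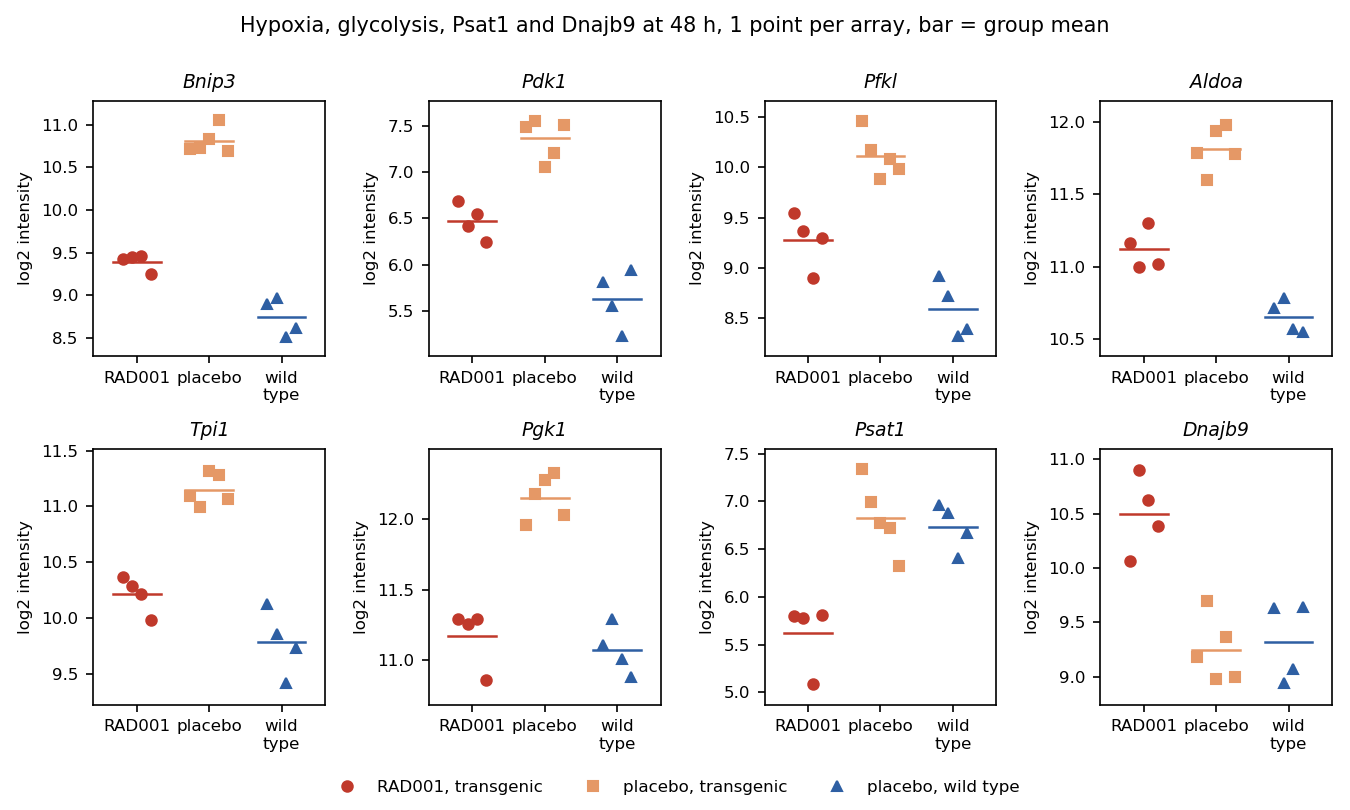
Log2 intensity (vertical axis) of 8 genes on each 48 h array of RAD001-treated transgenic mice (red circles), placebo-treated transgenic mice (orange squares) and wild type mice (blue triangles), with a bar at each group mean. Bnip3, Pdk1 and Aldoa lie under RAD001 between the placebo groups with no overlap, while the RAD001 arrays of Psat1 lie below and those of Dnajb9 above all others.

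Of 26 lysosomal and autophagy genes, 5 rose (19.2%, against 6.62% of all features) and none fell, with a median of 0.18. Ctsd, the protease cathepsin D, stood at 11.50, 11.46, 11.32 and 11.21 in RAD001-treated mice, against 10.65, 10.65, 10.62 and 10.53 in wild type mice. The groups lie apart, with a difference of 0.76 ± 0.15 (adjusted p = 0.00113). Lamp1, a lysosomal membrane protein, was at 11.34 to 11.37 in RAD001-treated mice and 10.87 to 11.18 in wild type mice, a difference of 0.29 ± 0.07 (adjusted p = 0.0062). Hexa, a beta-hexosaminidase subunit, differed by 0.60 ± 0.18 and Asah1, acid ceramidase, by 0.61 ± 0.19, and both calls were lost when 1 array was left out (adjusted p up to 0.0789, without RAD001 array 4). In transgenic mice given placebo 14 members were higher (12.2% of all features were), with a median of 0.35. At 12 h of RAD001 13 members were higher (8.7% of all features were), with a median of 0.49. Without RAD001 array 4 and wild type array 2, 2 members were called higher at 48 h, and the median was 0.21. Calls among all features were fewer in that fit too.

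Immediate early and stress factors had 4 of 19 members higher (21.1%, against 6.62% of all features) and none lower, with a median of 0.38. Atf3, a stress-induced transcription factor, had 7.32, 7.50, 7.63 and 7.17 in RAD001-treated mice, against 6.39, 6.26, 5.84 and 5.97 in wild type mice, a difference of 1.29 ± 0.33 (adjusted p = 0.00894). Btg2, an antiproliferative gene, differed by 0.94 ± 0.26 (adjusted p = 0.0135), and Jund, a member of the AP-1 family, by 0.57 ± 0.13 (adjusted p = 0.00282). The second probe set of Btg2 stood at 0.29. Klf6, a zinc finger factor, differed by 0.59 ± 0.20 (adjusted p = 0.0426). The call of Klf6 was lost in 6 of the 8 fits without 1 array, and that of Btg2 without RAD001 array 2 (adjusted p = 0.0556). Of 25 endoplasmic reticulum genes only Dnajb9, a co-chaperone of the unfolded protein response, was called, a share of 4% higher, beside 6.62% of all features. Dnajb9 stood at 10.06, 10.90, 10.63 and 10.39 in RAD001-treated mice, at 8.98 to 9.70 under placebo and at 9.64, 8.94, 9.07 and 9.64 in wild type mice. No other 48 h array reached the RAD001 range, and the difference from wild type was 1.17 ± 0.28 (adjusted p = 0.00488), yet without RAD001 array 4 and wild type array 2 no member of the list was called.

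Of 25 proteasome genes, 3 were higher (12%, against 6.62% of all features) and 1 lower (4%, against 6.72%), with a median of -0.02. Psmc5, an ATPase of the regulatory particle, had 9.59, 9.51, 9.51 and 9.68 in RAD001-treated mice, against 9.08, 9.12, 9.01 and 8.90 in wild type mice, a difference of 0.55 ± 0.11 (adjusted p = 0.00112). Psmd7 differed by 0.59 ± 0.16, Psmc1 by 0.53 ± 0.16, and Psmd14, a deubiquitinase of the particle, by -0.44 ± 0.09, and the call of Psmc1 was lost without wild type array 3 (adjusted p = 0.093). Of 10 acute-phase and mucosal defence genes, 2 were higher (20%, against 6.62% of all features) and 0 lower. These were Saa2 and Pigr, the receptor that carries IgA across epithelia, Pigr by 0.61 ± 0.12 (adjusted p = 0.000657). Of the 10, 7 are listed at 0 on at least 1 of the 8 arrays. With values at 0 treated as missing 4 were called higher, and without RAD001 array 4 and wild type array 2 it was 3. limma called 0 of 18 interferon-induced genes, and 1 with values at 0 treated as missing.

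Of 17 genes of the cell cycle and replication, 3 fell (17.6%, against 6.72% of all features), none rose, and the median was -0.33. Cdk4, a kinase of the G1 phase, stood at 8.43, 8.02, 8.23 and 8.27 in RAD001-treated mice, against 8.69, 8.87, 9.10 and 8.91 in wild type mice, a difference of -0.65 ± 0.11 (adjusted p = 0.000119). Ccnd1, its partner cyclin D1, differed by -0.69 ± 0.14 (adjusted p = 0.000885), and Pcna, the sliding clamp of DNA replication, by -0.74 ± 0.13 (adjusted p = 0.000207). For each of these 3 genes the RAD001 and wild type arrays did not overlap, and the call was kept in each fit without 1 array. Cytosolic ribosomal protein genes had 2 of 16 lower (12.5%, against 6.72% of all features). These were Rps2 at -0.42 ± 0.08 (adjusted p = 0.000607) and Rpl10a at -0.25 ± 0.07 (adjusted p = 0.00965).

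Of 20 genes of the mTOR complexes and their regulators, the pathway that RAD001 targets, 1 rose (5%, against 6.62% of all features) and 3 fell (15%, against 6.72%) in message, with a median of -0.07. Lamtor1 and Lamtor3, subunits of the Ragulator complex that anchors mTOR complex 1 to the lysosome, differed by -0.56 ± 0.16 and -0.37 ± 0.12, and Lamtor2, of the same complex, by 0.38 ± 0.12. Lamtor1 and Lamtor2 each have another probe set of opposite sign, at 0.08 and -0.25. Rheb, the GTPase that activates the complex, differed by -0.34 ± 0.11 (adjusted p = 0.0382). Each of these 4 calls was lost when 1 array was left out, with an adjusted p up to 0.193, for Rheb without RAD001 array 1. Mtor was at 0.04 ± 0.46 and Eif4ebp1, a translation repressor that the complex phosphorylates, at -0.28 ± 0.17, neither called. Of 15 genes of PI3K and AKT signalling only Irs1 was called, a share of 6.67% lower, beside 6.72% of all features. Of 20 FOXO factors and targets, 1 was higher (5%, against 6.62% of all features) and 2 were lower (10%, against 6.72%), shares near those of all features. Cat (catalase) was higher by 0.69 ± 0.21, and Ccnd1 and Igfbp5, an IGF-binding protein, were lower, Igfbp5 at -0.57 ± 0.18. The second probe sets of Cat and Igfbp5 stood at 0.08 and -0.28. The calls of Cat and Igfbp5 were lost without wild type array 3 (adjusted p = 0.109) and without wild type array 4 (adjusted p = 0.146).

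Sterol and fatty acid genes were mostly not called. Of 17 genes of cholesterol synthesis, 1 was lower (5.88%, against 6.72% of all features), and the list median was -0.12. The gene called was Tm7sf2, a sterol reductase, at -0.71 ± 0.16 (adjusted p = 0.00341). Cyp51, lanosterol demethylase, stood at 5.36, 4.93, 4.77 and 5.39 in RAD001-treated mice, at 6.79 to 7.80 under placebo and at 6.06, 5.86, 5.83 and 6.37 in wild type mice. The 3 groups do not overlap, and the difference from wild type was -0.92 ± 0.34 (adjusted p = 0.0644), not called. Fdps, farnesyl diphosphate synthase, was at -0.26 ± 0.22 and Fdft1, squalene synthase, at 0.42 ± 0.23, neither called. Sterol uptake and sensing had 2 of 9 genes lower (22.2%, against 6.72% of all features), and fatty acid synthesis 1 of 11 (9.09%). Srebf1, the sterol-regulatory factor of lipogenesis, fell, with a difference of -0.50 ± 0.15, as did Scarb1, a receptor for high-density lipoprotein, at -0.54 ± 0.15, and Scd1, stearoyl-CoA desaturase, at -0.77 ± 0.21. The calls of Srebf1 and Scd1 were lost without wild type array 3 (adjusted p = 0.113) and without RAD001 array 1 (adjusted p = 0.0786).

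Markers of the lobe's cell types were read for both groups. Of 11 luminal markers, 1 was higher (9.09%, against 6.62% of all features) and 1 lower (9.09%, against 6.72%). Cdh1, the epithelial cadherin, was higher (0.79 ± 0.15, adjusted p = 0.000711) and Foxa1, a pioneer factor of luminal cells, lower (-0.37 ± 0.10, adjusted p = 0.015). The Foxa1 call was lost without RAD001 array 1 (adjusted p = 0.0529). Of 7 basal markers, 2 were lower (28.6%, against 6.72% of all features). These were Itga6, a laminin-binding integrin, at -0.95 ± 0.16, and Trp63, the transcription factor that marks basal cells. Trp63 stood at 6.39, 6.53, 5.98 and 6.36 in RAD001-treated mice, at 5.59 to 5.96 under placebo and at 7.01, 6.89, 7.08 and 6.83 in wild type mice, a difference from wild type of -0.64 ± 0.14 (adjusted p = 0.00198). Krt5, a basal keratin, was at -0.07 ± 0.17 and Krt8, a luminal keratin, at 0.17 ± 0.16, neither called. Androgen-regulated genes had 2 of 13 higher (15.4%, against 6.62% of all features) and 1 lower (7.69%, against 6.72%), with a median of 0.06. Tmprss2, a membrane serine protease of luminal cells, was higher by 0.97 ± 0.24 (adjusted p = 0.0061). Slc45a3 was higher by 0.40, a call lost in 7 of the 8 fits without 1 array. Steap1 was lower, at -1.07, and kept its call in each such fit.

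Of 12 fibroblast and matrix genes, 3 were called lower (25%, against 6.72% of all features) and 1 higher (8.33%, against 6.62%). Of the 3, Col3a1 differed by -1.19 ± 0.33, Col1a2 by -0.84 ± 0.25 and Pdgfra by -0.71 ± 0.20, with a list median of -0.67, while Col1a1, called higher, is listed at 0 on 3 wild type arrays. With values at 0 treated as missing, 6 of the 12 were called lower and none higher. Sparc, a matrix glycoprotein, was at -0.72 ± 0.26 (adjusted p = 0.0577), and the second probe sets of Col3a1 and Pdgfra stood at 0.22 and 0.27. Of 12 smooth muscle genes, Flna (-0.72 ± 0.21) and Actg2 (-0.82 ± 0.28) were called lower (16.7%, against 6.72% of all features), with a list median of -0.36, and Acta2 was at -0.38 ± 0.14 (adjusted p = 0.0619). Each of these 5 called falls was lost when 1 array was left out, Actg2 with an adjusted p up to 0.149 without wild type array 3.

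As the mean of a list's values after centring each gene over the 13 arrays of 48 h, fibroblast genes stood at -0.10 to 0.16 in RAD001-treated mice and 0.09 to 0.48 in wild type mice. Smooth muscle genes stood at -0.16 to 0.42 in RAD001-treated mice and 0.22 to 0.65 in wild type mice, so the groups overlap on both scores. The fibroblast score includes Col1a1, whose values at 0 on 3 wild type arrays lower the score of those arrays. It was not computed without Col1a1, so the overlap of the fibroblast score may rest on these values. limma called 0 of 8 macrophage and 0 of 6 T, B and NK cell genes, also with values at 0 treated as missing. The part of these cell types in the other differences was not tested.

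No feature could be placed outside or between the placebo groups after adjustment. Each such test took the larger p of RAD001 against wild type and RAD001 against transgenic placebo, where both differences had the required direction. Such a test is strict, and with no difference its share under an unadjusted 0.05 is smaller than that of a single p. Outside both placebo groups limma called 0 features (340 had a larger unadjusted p under 0.05, 3.53%), and the adjusted p of Rps2 and Psat1, both low under RAD001, was 0.0858 for each. Between the placebo groups limma called 0 (189 at an unadjusted p under 0.05, 1.96%), with an adjusted p of 0.216 for Trp63 and for Hif3a, a member of the HIF family named after its values were seen. Hif3a stood at 7.72 to 8.23 in RAD001-treated mice, 8.65 to 9.11 under placebo and 7.06 to 7.22 in wild type mice.

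The genotype difference was also read at 48 h on genes chosen by their differences between other arrays. Placebo arrays of 12 h and 15 d gave 372 features higher and 341 lower in transgenic than in wild type mice by at least 1.5-fold. No 48 h array entered these differences. The 48 h arrays did take part in the shared estimate of the spread, the brightness filter and the choice of probe set, so the choice of genes was not fully independent of them. Without the size limit 30.8% of all features passed that test, 13.4% higher and 17.4% lower. At 48 h the 372 had a median of 0.34 in RAD001-treated minus wild type mice, and of 0.61 in placebo-treated transgenic minus wild type mice. Of the 372, 104 (28%, against 6.62% of all features) were called higher under RAD001 and 6 lower. The medians of the 4 RAD001 arrays ran from 0.27 to 0.44, those of the placebo arrays from 0.44 to 0.70, and those of the wild type arrays from -0.07 to 0.11. The 341 lower features had a median of -0.27 under RAD001 and -0.43 under placebo, with 64 (18.8%) called lower and 0 higher. The RAD001 arrays lay between the wild type and the placebo arrays in both sets, and no RAD001 array reached the wild type range.

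**Figure D5:**
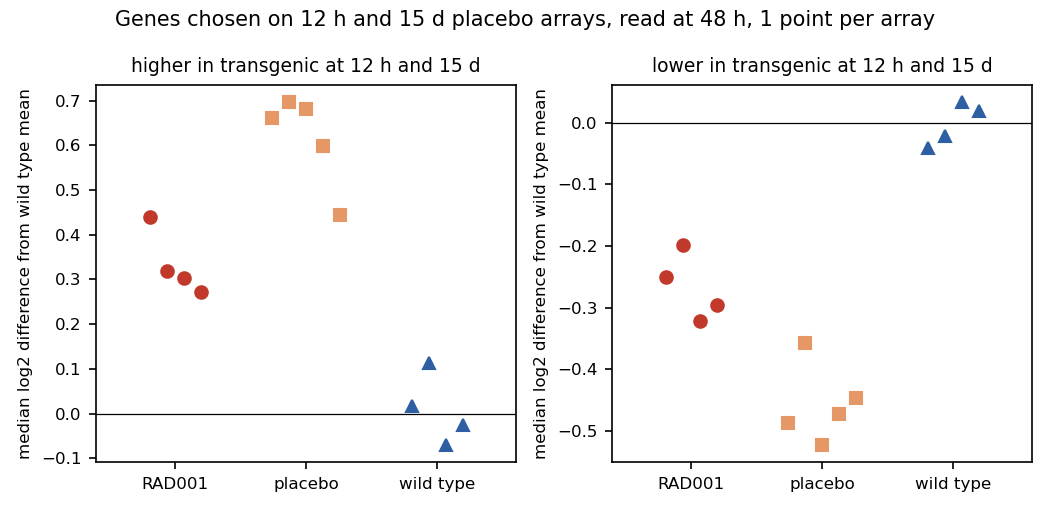
Median log2 difference from the wild type mean (vertical axis) over 372 features higher (left) and 341 features lower (right) in transgenic than in wild type mice under placebo at 12 h and 15 d, 1 point per 48 h array. RAD001 arrays (red circles) run from 0.27 to 0.44 on the left and from -0.32 to -0.20 on the right, between placebo-treated transgenic (orange squares) and wild type arrays (blue triangles).

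The same contrast at 12 h and 15 d takes its group means from other arrays, but its test shares 1 estimate of the spread with that of 48 h. A feature with a small spread is thus more easily called at each time, and the shared calls are not independent. At 12 h, 1638 features (17%) differed between RAD001-treated transgenic and wild type mice, and at 15 d 143 (1.49%), 0.738% higher and 0.748% lower. Of the 637 features higher at 48 h, 234 were also called higher at 12 h (36.7%, and 27.9% of the 838 higher at 12 h) and 7 were called lower. Of the 647 lower at 48 h, 202 were also called lower at 12 h (31.2%, and 25.2% of the 800 lower at 12 h) and 11 higher. Among all features 8.7% were called higher and 8.31% lower at 12 h. At 15 d 55.4% of the higher set lay above 0, against 42.3% of all features, and 29 of the 637 were called higher. Of the lower set 62% lay below 0 at 15 d, against 57.7% of all features, and 17 of the 647 were called lower.

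Called in the same direction at all 3 times were 28 higher and 10 lower features. Gde1 was higher by 2.72 at 12 h, 1.90 at 48 h and 1.56 at 15 d. Rgs2, a regulator of G protein signalling, and Pdzk1, a scaffold of membrane transporters, are named after their values were seen. Rgs2 stood at 11.33, 12.03, 12.02 and 11.73 in RAD001-treated mice of 48 h, against 10.50, 10.55, 10.11 and 10.57 in wild type mice, and differed by 1.35 at 12 h, 1.34 at 48 h and 0.74 at 15 d. Pdzk1 stood at 10.54 to 10.84 in RAD001-treated mice of 48 h and at 9.30 to 9.54 in wild type mice, and differed by 1.33, 1.28 and 0.76 at these times. Atf3 and Klf6 were among the 28, and Scd1 and Srebf1 among the 10.

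The difference from wild type itself changed between times for some genes. Against 12 h, 217 features (2.25%) had a different RAD001-minus-wild-type value at 48 h, 91 higher (0.945%) and 126 lower (1.31%). Plod2, a lysyl hydroxylase, was at 0.75 at 12 h and -0.35 at 48 h, a change of -1.10 ± 0.19 (adjusted p = 0.00468). Dhrs1, Ap1ar, Esrp2, an epithelial splicing factor, and Tfdp1, a partner of E2F, moved the same way, by -1.13, -1.20, -1.17 and -0.88. Stom, a membrane protein, moved by 0.76, and at 48 h its 4 probe sets ranged from -0.09 to 0.32. Wild type mice of 48 h differed from those of 12 h at 1650 features (17.1%). The count against 12 h was 99 and 112 without wild type array 1 or 2 of 12 h, 134 and 101 without wild type array 1 or 2 of 48 h, 136 and 137 without RAD001 array 1 or 2 of 12 h, and 125 without RAD001 array 2 of 48 h. It was 66 without RAD001 array 4 and wild type array 2 of 48 h.

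Against 15 d, 482 features (5.01%) had a different value at 48 h, 290 higher (3.01%) and 192 lower (1.99%). Sspo, which encodes a large secreted glycoprotein, had 7.95, 8.30, 8.58 and 8.51 in RAD001-treated mice against 6.82, 6.95, 6.93 and 6.67 in wild type mice at 48 h. Its difference was 1.49 at 48 h and -0.11 at 15 d, a change of 1.61 ± 0.24 (adjusted p = 0.000543). Strap, a partner of TGF-beta receptors, was at 1.002 at 48 h and -0.12 at 15 d, and Phf3 at 0.73 and -0.45. The second probe set of Phf3 stood at 0.19 at 48 h. Pof1b, an actin-binding epithelial protein, Asf1a, a histone chaperone, and Eea1, a protein of early endosomes, differed by -1.04, -1.22 and -0.99 at 48 h, and stood at 0.59, 0.39 and -0.08 at 15 d. The count moved with single arrays: it was 31, 757 and 201 without wild type array 1, 2 or 3 of 15 d, and 880 and 320 without RAD001 array 1 or 3 of 15 d. It was 313 and 256 without wild type array 1 or 2 of 48 h, and 222 without RAD001 array 2 of 48 h.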

How the data were processed

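Per the labels' protocols, ventral prostate RNA was isolated with Trizol and labelled as biotinylated cRNA for Affymetrix arrays. The authors deposited linear intensities, 1 value per probe set and array, for 22626 probe sets on 42 arrays of 12 h, 48 h and 15 d. The sources used here do not give the software or scaling behind them. A smaller table of 6 d and 9 d was not used. Of the probe sets 20380 have 1 gene symbol, 691 several and 1555 none, by the platform annotation.

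A floor of 16 was applied before log2, with arrays as deposited, since their log2 medians spanned 0.256, under the limit of 0.5 for a further scaling. Left out were 2 probe sets with values above 1e+05, and probe sets whose mean log2 was below the 40th percentile. The brightest probe set of each gene was kept, which left 9627 features, 8496 of them named. limma 3.58.1 under R 4.3.3 fitted 1 mean per group over all 42 arrays, which share one estimate of the spread, using eBayes with a trend in intensity. Benjamini-Hochberg adjustment was made over all features, with a threshold of 0.05. The labels call the samples biological replicates. Whether same-numbered arrays of RAD001 and wild type deviate together was checked, and their correlations were 0.046, -0.070 and -0.024. These give no sign of pairing by number, but so few arrays cannot exclude it. On simulated data of this comparison with 9627 features, 75% of changes of 1 log2 unit and 26% of changes of 0.5 were recovered, with 11 false calls.

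Genes named in the text are the 15 largest called rises and falls, the members of each list that had the lowest p (4 at most) and those a limit concerns, the 6 smallest p of each test between times, and a fixed set of pathway genes. As no gene passed the outside and between tests, their genes were ordered by p and few are named. Rgs2, Pdzk1, Hif3a, Phgdh, Atf4, Sparc and the 7 citric acid cycle genes beyond the first 4 were chosen after their values were seen. Rps6kb1 was too dim to be tested. The groups, members and lists were chosen with earlier results of these data known. Alternatives changed the filter, floor, scaling, probe set choice, weights, arrays fitted, the trend and the replicate block, and left out each array in turn. Treating values at 0 as missing, and leaving out RAD001 array 4 and wild type array 2, were added after seeing the data. Promoter windows came from RefSeq, build GRCm38.p6.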

Additional observations from a re-analysis of the deposited data

Results flagged for a closer look

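In 23 of 384 groups of arrays, each 1 named gene in 1 group of 48 h, a single array lay far from the others, with a gap to its nearest neighbour above Dixon's 95% critical share of the range. Chance marks about 1 in 20 groups. Of the 23, 9 are RAD001 arrays, 6 transgenic placebo arrays and 8 wild type arrays. On the log2 scale, RAD001 array 1 stood apart at 4 for Bzw2 (listed at 0), 7.241 for Fdps, 9.589 for Lamtor2 and 6.889 for Steap1. RAD001 array 4 did so at 4 for Krt7 (listed at 0) and 5.086 for Psat1. RAD001 array 5 did so at 7.179 for Sh3bgr, 10.86 for Pgk1 and 9.248 for Bnip3. Among transgenic placebo arrays, array 2 stood at 4 for Ldha (listed at 0), array 4 at 9.409 for Slc2a1, 10.09 for Atp5c1 and 9.324 for Akt1, and array 5 at 9.391 for Nars and 11.34 for Ctsd. Among wild type arrays, array 1 stood at 8.125 for Ephb3 and 8.395 for Col1a1, the other 3 being listed at 0, and at 7.174 for Qser1. Wild type array 2 stood at 4 for Anxa13 (listed at 0) and 7.975 for Pdgfra, array 3 at 10.11 for Rgs2, and array 4 at 4 for Get4 (listed at 0) and 11.68 for Pigr.

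The RAD001-minus-wild-type difference of 48 h differed from that of 12 h at 217 features by limma's test of the difference itself. The genes with the smallest p were Plod2 (-1.099), Dhrs1 (-1.13), Ap1ar (-1.201), Tfdp1 (-0.8836), Esrp2 (-1.17) and Stom (0.757). Against 15 d it differed at 482 features, with the smallest p for Sspo (1.608), Phf3 (1.183), Pof1b (-1.623), Asf1a (-1.609), Strap (1.12) and Eea1 (-0.9082).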

How the results depend on the processing

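RAD001 minus wild type at 48 h gave 1284 calls, and 1045 to 1891 under the other filters, floor, scalings, probe set choice, sample sets and trend, 1940 with array weights, 1667 with the replicate block, 642 without RAD001 array 4 and wild type array 2, and 815 to 1155 when 1 array was left out. Median scaling gave 655 higher and 471 lower. The count outside both placebo groups, 0, was 7 with array weights, 4 with 12 h and 48 h arrays only, 3 without arrays that hold over 500 values at 0, 2 with the replicate block, 4 with values at 0 as missing, and 0 to 4 when 1 array was left out. The count between them was 0 under each alternative run. The count against 12 h, 217, was 372 with all probe sets, 719 with array weights, 344 with the compared groups only, 554 with 12 h and 48 h arrays only, 362 without the arrays rich in 0, 375 with 0 as missing, 66 without both arrays named above, and 99 to 249 when 1 array was left out. The count against 15 d, 482, was 1764 with array weights, 770 without the arrays rich in 0, 304 with the replicate block, 826 with 0 as missing, 137 without both arrays, 265 with both of these changes, and 31 to 880 when 1 array was left out. The genotype-gene medians of 0.34 and -0.27 were 0.42 and -0.39 with the replicate block, and 0.28 to 0.38 and -0.31 to -0.19 when 1 array was left out. Same-numbered arrays gave no sign of pairing (correlations of 0.046, -0.070 and -0.024), which so few arrays cannot exclude, and the block is given here only. Reversed were Col1a1 (-0.17), Pomc (-0.063) and Mmp9 (-0.10) with 0 as missing, since the wild type values at 0 were then not used. With both arrays left out as well, Col1a1 (-0.22), Rpf2 (-0.092), Cys1 (-0.051) and Mmp9 (-0.14) were reversed. For the other counts the cause was not tested. Of 105 called named genes, 59 kept the call whichever array was left out and 50 kept it under every alternative run. With 12 h and 48 h arrays only, the 15 d comparison and the genotype genes have no value. Signal near the floor limits dim genes, since 10.7% to 12.8% of values per array lie at the floor.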
